A study of Mus musculus with 4 samples.

Results

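The collagen chain genes were taken as every gene whose symbol is Col, a number, a and a number, such as Col1a1. This gave 44 of the 27932 genes in the tables, all of them found on the GENCODE vM21 annotation of mm10. Collagens are secreted proteins in which 3 chains wind into a triple helix. Fibril-forming collagens build the rope-like fibres of connective tissue, type IV collagens form the sheet of basement membranes, type VI chains form beaded filaments at the cell surface, and other chains decorate fibrils, build networks or span the cell membrane. In the developing kidney the stroma between the tubules is known for fibrillar collagen, while nephron epithelium, the ureteric tree and vessels rest on type IV collagen.

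Drop-seq, run here on E14.5 mouse kidneys, counts the 3' ends of transcripts per cell barcode. The 2 mutant libraries came from kidneys with the genotype Hoxa9,10,11 and Hoxd9,10,11 -/-, and the 2 wildtype libraries from kidneys labelled wildtype. Both genotypes share the age and a mixed strain background, mostly CD-1 and 129. The labels name no Cre driver, do not say which part of each Hox gene was altered and do not say how many embryos a library held or that libraries came from separate embryos, so the p-values weigh differences against library-to-library spread, part or all of which may be technical.

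The tables held 1061 and 6428 barcodes in mutant 1 and mutant 2, against 2113 and 5542 in wildtype 1 and wildtype 2, with 3572346 and 21350698 total counts against 9817486 and 24834658. After the filters 810 and 4329 mutant cells and 1852 and 4788 wildtype cells were kept, and 2 of their barcode sequences occurred in both mutant 2 and wildtype 2. Mutant 1 was the shallowest library and limits the precision of the mutant values. RNA quality differed with genotype: a mitochondrial share above 10% was found in 19.6% and 29.1% of mutant barcodes and in 7.76% and 9.06% of wildtype barcodes, and Malat1, a nuclear RNA, stood at 4676 and 6548 CPM (counts scaled to the total counts of the same cells) in mutant cells against 2282 and 1679 CPM in wildtype cells. The part of these differences in the collagen results was not tested. Over all kept cells the 6 targeted Hox genes gave 29.6 to 197 CPM in the mutant libraries and 19.95 to 175 CPM in the wildtype libraries, and a 3' count outside an altered part does not check the genotype.

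Lineages were read by gating. A cell entered a gate when at least 3 counts (UMIs) from at least 2 markers of a lineage were present and the list led every other list at least 2-fold, and no collagen gene was a marker. The stroma gate held 359 and 1855 mutant cells against 626 and 1277 wildtype cells, which was 44.3% and 42.9% against 33.8% and 26.7% of kept cells. All 16 stroma markers were present in it in every library. Inside it, a fibroblast-like subgate was set by Lum, Dcn, Postn and Ogn, which are themselves matrix genes, and a cortical subgate by Foxd1, Ntn1, Crabp1 and Fibin. The fibroblast-like subgate held 25.2% and 26.4% of mutant cells and 9.72% and 5.53% of wildtype cells.

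Collagen RNA was largely, though not only, a stromal signal in both genotypes. Col1a2 alone gave 2632 CPM in podocyte-gated cells of mutant 2 and 2101 CPM in those of wildtype 1. Col4a1 had a pooled 568 CPM in the endothelium gate. The 44 genes together made up 1.02% and 1.16% of the counts of mutant stroma-gated cells and 0.546% and 0.311% of those of wildtype stroma-gated cells. In the immune gate, where fibrillar collagens are not known to be made, the share was 0.0225% and 0.0331% in mutant libraries and 0.00879% and 0.0216% in wildtype libraries, with 23 cells in mutant 1. The erythroid gate, another lineage not known to make them, was higher, at 0.9496% in 1 cell and 0.466% in 10 cells of mutant 1 and mutant 2 and 0.0688% in 90 cells of wildtype 2, and was empty in wildtype 1. Against the other gated cells of the same libraries, 27 of the 36 chains tested were higher in the stroma gate and 2 were lower, by the quasi-likelihood test of edgeR, Benjamini-Hochberg adjusted over all genes. Of all genes in this comparison 38.0% passed, 18.2% as higher and 19.8% as lower. The median log2 fold change was 2.31 for the chains and 0.01 for all genes tested.

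The largest differences between stroma and the other gated cells were in fibril-forming and type VI chains. Col3a1, which forms the thin fibrils of soft tissue, was higher by a log2 fold change of 5.42 (adjusted p = 0.00257 in edgeR, SE 0.37). Col1a1 and Col1a2, the chains of type I collagen, were higher by 5.30 (SE 0.39) and 4.62 (SE 0.34), and Col6a1 and Col6a2, a pair of type VI chains, by 5.06 (SE 0.19) and 4.92 (SE 0.17). Col8a2, a chain of network-forming type VIII collagen, was higher by 4.74 (SE 0.29) and Col16a1, which associates with fibrils, by 4.67 (SE 0.17), both above Col1a2. The chains lower in stroma were Col18a1 at -2.59 (SE 0.30) and Col15a1 at -1.30 (SE 0.26), the vessel and epithelial basement membrane collagens from whose ends endostatin-like fragments are cut.

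**Figure D1:**
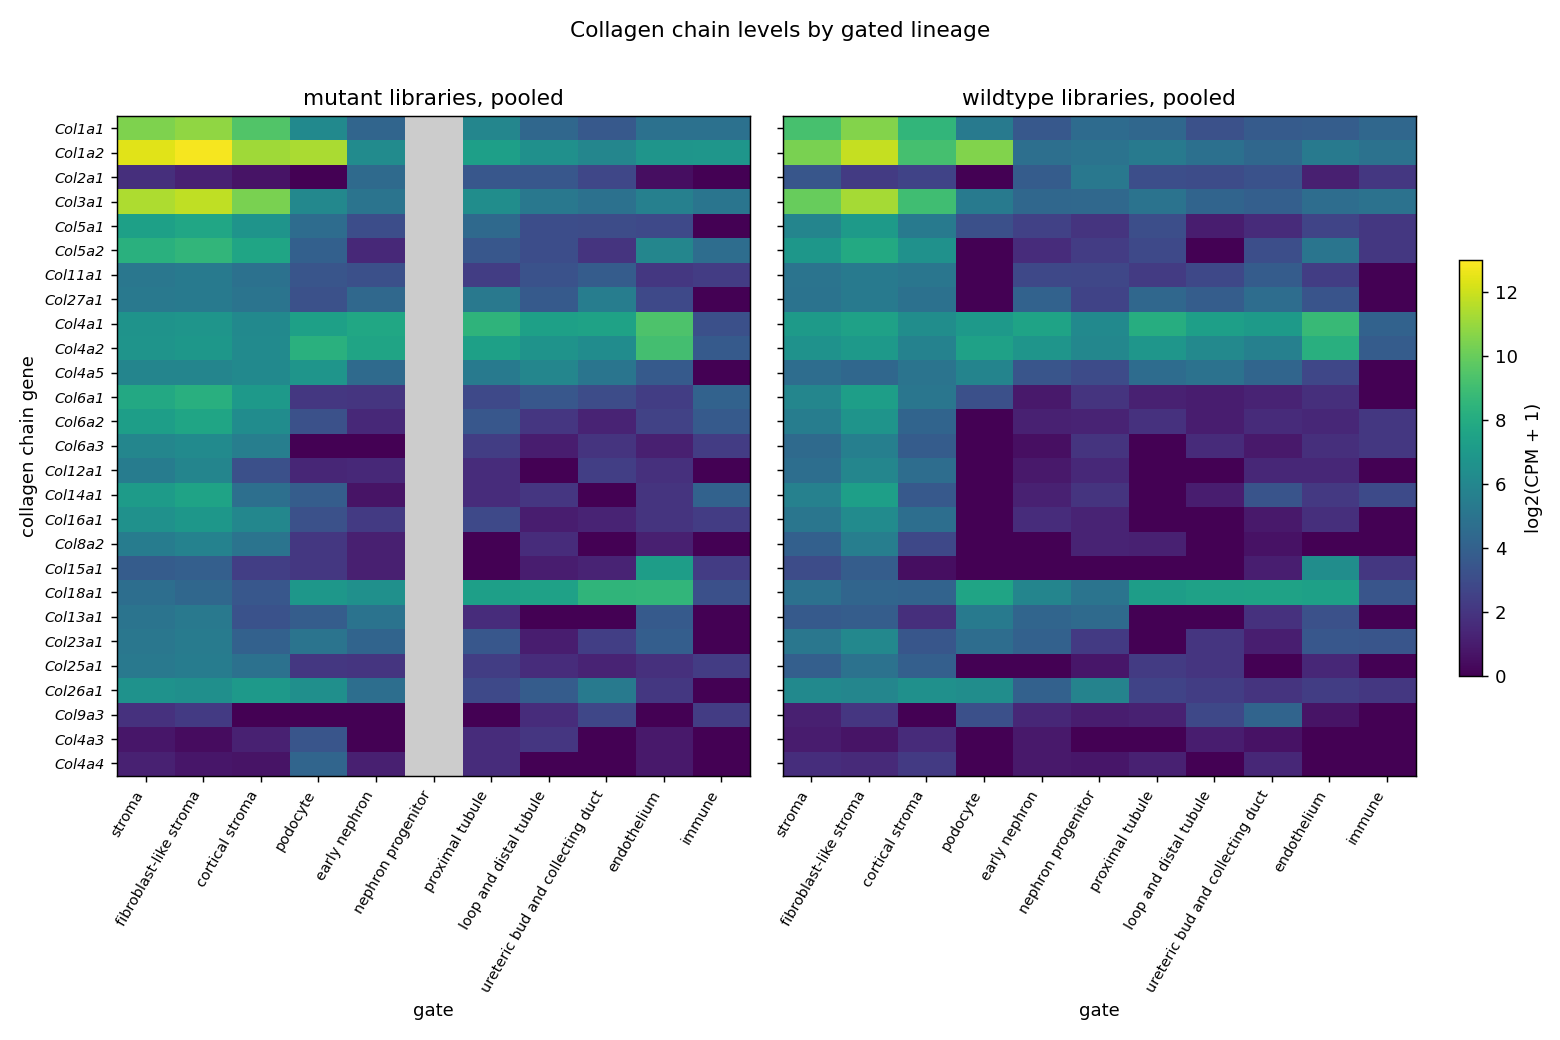
Levels of the 24 chains with at least 10 CPM in a genotype, and of Col9a3, Col4a3 and Col4a4, by gate, as log2(CPM + 1) of the counts pooled over the 2 mutant libraries (left panel) and the 2 wildtype libraries (right panel); grey marks a gate with fewer than 25 cells in a genotype. Fibril-forming and type VI chains are bright in the stromal gates, Col4a1, Col4a2, Col15a1 and Col18a1 in endothelium, and Col1a2 well above Col1a1 in the podocyte gate.

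Within stroma, chains differed between the 2 kinds of cell. Of 27 chains tested, 20 were higher in the fibroblast-like than in the cortical subgate and 1 was lower, where 7.69% of all genes passed, 5.06% as higher and 2.63% as lower. Col9a1, a chain of fibril-associated type IX collagen, had the largest log2 fold change, 3.37 (SE 0.50). In fibroblast-like cells its TMM-scaled CPM were 0 and 11.0 in mutant and 36.1 and 34.8 in wildtype libraries. Mutant 1 thus had no count of it there, and the difference rested on the other libraries. Col14a1, which binds to the surface of fibrils, had 80.6 and 202 CPM in fibroblast-like cells of mutant 1 and mutant 2 and 264 and 93.3 CPM in those of wildtype 1 and wildtype 2. In cortical cells of the same libraries it had 21.8, 27.1, 21.0 and 6.15 CPM. It was higher in fibroblast-like cells in every library, with a log2 fold change of 3.21 (adjusted p = 1.62e-10 in edgeR, SE 0.19). Col9a2 and Col15a1 stood at 2.999 (SE 0.41) and 2.58 (SE 0.64). The value for Col15a1 was not past the test with DESeq2 (adjusted p = 0.108), without wildtype 1 (0.0780) or without wildtype 2 (0.145). Col26a1 was the chain lower in fibroblast-like cells, by a log2 fold change of -0.62 (adjusted p = 0.00559, SE 0.14), and was not past the test with DESeq2 (adjusted p = 0.0541). Col4a5, Col11a1 and Col27a1 were among the 6 chains that did not pass.

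Between genotypes, the share of collagen RNA among the counts of the kept cells differed. Over all kept cells the 44 genes made up 0.563% and 0.598% of mutant counts against 0.219% and 0.117% of wildtype counts. Fibril-forming chains summed to 4928 and 4770 CPM in mutant libraries against 1528 and 707 CPM in wildtype libraries, and type VI chains to 135 and 233 against 51.5 and 35.2 CPM. Type IV chains summed to 223 and 520 CPM in mutant libraries against 360 and 229 CPM in wildtype libraries, so that for this class the genotypes overlapped. These are sums over a mixture of cells, in which more cells of a type and more RNA per cell cannot be told apart, and stroma-gated cells were a larger share of the mutant libraries. Other lineages moved beside them. The 12 neural and glial markers summed to 162 and 225 CPM in mutant against 15.3 and 14.9 CPM in wildtype libraries, with 1 and 0 against 1 and 0 of them at 0. The 11 endothelial markers summed to 406 and 719 against 313 and 259 CPM, the 8 podocyte markers to 119.5 and 274 against 91.2 and 62.9 CPM and the 10 nephron progenitor markers to 88.6 and 152 against 521 and 607 CPM, with none at 0. The 9 ureteric bud and collecting duct markers summed to 292 and 118 against 476 and 318 CPM. The 7 mural markers summed to 70.1 and 99.9 against 67.6 and 44.2 CPM, with 1 and 0 against 0 and 0 at 0. The part of these lineages in the all-cell result was not tested.

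In edgeR's quasi-likelihood test over all kept cells, 9 chains rose and 1 fell in mutants among the 41 tested, where 1.32% of all 15777 genes passed, 0.963% as higher and 0.355% as lower. The median log2 fold change was 0.99 over the chains and 0.01 over all genes. In total, 36 chains lay above 0 and 5 below. The chains that rose were Col1a1, Col1a2, Col3a1, Col5a1, Col5a2, Col6a1, Col6a2, Col16a1 and Col8a2, and the chain that fell was Col2a1. Without wildtype 2 the count was 6, since Col1a2, Col2a1, Col3a1 and Col5a2 were no longer past the test.

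Type I collagen has a pair of chains, and Col1a2 gave the highest counts of all collagen chains in every library. Col1a2 (chr6:4504814-4541544, plus strand, mm10) had 2928 and 2513 CPM in mutant libraries and 758 and 233 CPM in wildtype libraries. Col1a1 (chr11:94936224-94953042, plus strand) had 799 and 631 CPM in mutant libraries and 176 and 170 CPM in wildtype libraries. For both chains the mutant libraries lay above the wildtype libraries, and the 2 wildtype libraries differed from each other far more in Col1a2 than in Col1a1. Col1a2 rose by a log2 fold change of 2.39 (adjusted p = 0.00855, SE 0.47) and Col1a1 by 1.93 (adjusted p = 0.00275, SE 0.36). Without wildtype 2 the value for Col1a2 was 1.82 (adjusted p = 0.106). Col1a2 is shown with its promoter because its counts departed from those of its partner chain in podocytes and in wildtype 2. The RefSeq window of 250 bases before to 50 after its start, chr6:4505368-4505667 (plus strand) in GRCm38.p6, has in capitals the matches to CCAAT and GGGCGG on either strand:
Col1a2: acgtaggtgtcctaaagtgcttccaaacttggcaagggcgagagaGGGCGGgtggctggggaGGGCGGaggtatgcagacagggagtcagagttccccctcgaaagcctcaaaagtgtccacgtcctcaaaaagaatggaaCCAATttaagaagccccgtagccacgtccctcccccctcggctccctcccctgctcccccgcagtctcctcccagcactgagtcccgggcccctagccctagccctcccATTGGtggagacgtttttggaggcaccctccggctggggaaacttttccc
Of the 44 genes, 35 had such a RefSeq window. GGGCGG was found in 22 of these 35 (62.9%) and in 35.9% of 27025 promoter windows of the same length, CCAAT in 12 (34.3%) and 37.9%, and TATAAA in 5 (14.3%) and 14.2%. A match describes letters in the window and is not a shown binding site.

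Among the other fibril-forming chains, Col3a1 lay above Col1a1 and below Col1a2 in counts in every library. Col3a1 had 960 and 1322 CPM in mutant libraries and 450 and 211 CPM in wildtype libraries, and rose by 1.69 (adjusted p = 0.0202, SE 0.40). It was not past the test without mutant 2 (adjusted p = 0.0793) or without wildtype 2 (0.320). Col5a1 and Col5a2, the chains of type V collagen that start fibril growth, gave 64.9 and 84.0 against 24.0 and 16.8 CPM, and 98.8 and 160 against 56.3 and 26.02 CPM. Their mutant values lay above all wildtype values, with log2 fold changes of 1.75 (adjusted p = 0.00423, SE 0.35) and 1.56 (adjusted p = 0.0239, SE 0.36), the value for Col5a2 not past the test without mutant 2 (adjusted p = 0.126), without wildtype 2 (0.184) or with no mitochondrial limit (0.0536). Col3a1 and Col5a2 are neighbours on chromosome 1, tail to tail and 24615 bases apart. Col27a1, a fibrillar collagen known from cartilage, gave 44.5 and 24.8 CPM in mutant and 23.6 and 14.4 CPM in wildtype libraries, and Col11a1, a regulator of fibril width, 20.1 and 21.3 against 20.3 and 10.8 CPM. Neither passed, and wildtype 1 reached the mutant range in Col11a1 but not in Col27a1.

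**Figure D2:**
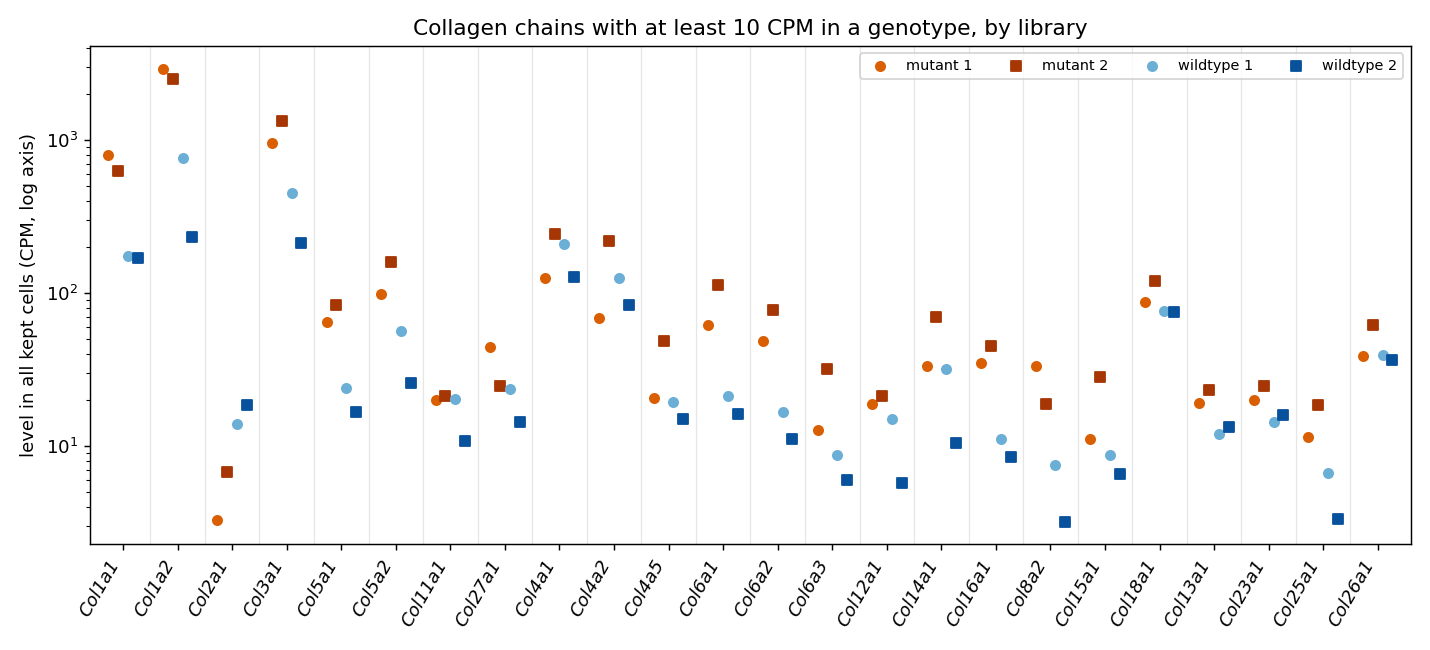
Level in all kept cells (CPM, log axis) of the 24 chains with at least 10 CPM in a genotype, each point 1 library, mutant libraries left of wildtype libraries. In Col1a1, Col1a2, Col6a1, Col6a2, Col16a1 and Col8a2 both mutant points lie above both wildtype points, in Col2a1 below them, and in Col4a1 and Col4a2 the genotypes overlap. Both mutant points also lie above in other chains, among them Col27a1 and Col13a1, which did not pass the test.

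Type VI collagen held the 2 smallest adjusted p-values. Col6a1 gave 61.6 and 113 CPM in mutant libraries and 21.2 and 16.2 CPM in wildtype libraries. Col6a2 gave 49.1 and 77.8 CPM in mutant libraries and 16.6 and 11.1 CPM in wildtype libraries. In both, each mutant library lay well above both wildtype libraries. They rose by 2.11 (adjusted p = 0.00101, SE 0.36) and 2.08 (adjusted p = 0.00116, SE 0.36), and no library left out ended either call. Col6a3, the large chain that completes the trimer with them, gave 12.8 and 32.0 against 8.82 and 5.997 CPM, a log2 fold change of 1.51 (SE 0.41) that missed the threshold (adjusted p = 0.0656). Col6a6 gave 8.23 and 8.21 against 3.64 and 0.661 CPM and did not pass either. Col6a1 and Col6a2 lie on the same strand of chromosome 10, 85162 bases apart. They moved together, so their RefSeq windows, chr10:76725995-76726294 (minus strand) and chr10:76623581-76623880 (minus strand) in GRCm38.p6, are shown with the match to GGGCGG on either strand in capitals, which occurs in Col6a2 and not in Col6a1:
Col6a1: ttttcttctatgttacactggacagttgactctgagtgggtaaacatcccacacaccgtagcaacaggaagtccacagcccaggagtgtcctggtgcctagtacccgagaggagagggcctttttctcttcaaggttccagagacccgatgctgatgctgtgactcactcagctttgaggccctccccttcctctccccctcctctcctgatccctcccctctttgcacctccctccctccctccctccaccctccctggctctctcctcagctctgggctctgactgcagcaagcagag
Col6a2: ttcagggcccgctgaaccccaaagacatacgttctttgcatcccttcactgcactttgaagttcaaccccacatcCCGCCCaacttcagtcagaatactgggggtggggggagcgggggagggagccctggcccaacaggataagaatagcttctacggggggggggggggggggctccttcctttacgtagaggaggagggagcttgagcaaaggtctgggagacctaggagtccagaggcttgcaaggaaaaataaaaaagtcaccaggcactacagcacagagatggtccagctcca

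Among the remaining chains, Col16a1, which associates with fibrils, had 35.2 and 45.2 CPM in mutant libraries and 11.1 and 8.55 CPM in wildtype libraries, and rose by 1.91 (adjusted p = 0.00335, SE 0.37). Col8a2 had 33.6 and 19.0 CPM in mutant libraries and 7.50 and 3.22 CPM in wildtype libraries, and rose by 2.22 (adjusted p = 0.00724, SE 0.44). In both the genotypes did not overlap. Col25a1, a transmembrane collagen of neurons and muscle, had 11.5 and 18.5 against 6.72 and 3.35 CPM and missed the threshold at 1.52 (adjusted p = 0.0544, SE 0.40). Col14a1 gave 33.6 and 69.8 against 32.0 and 10.5 CPM, Col12a1, another fibril-associated chain, 18.8 and 21.3 against 15.1 and 5.73 CPM, and Col15a1 11.2 and 28.3 against 8.71 and 6.61 CPM. The transmembrane chains Col13a1 and Col23a1 gave 19.1 and 23.5 against 12.02 and 13.4 CPM, and 20.1 and 24.6 against 14.3 and 16.0 CPM. In these 5 chains the mutant libraries were the higher ones, by a margin that did not pass. How many of all genes show such an order was not counted.

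Within the stroma gate no chain passed the test. Of 33 chains tested 0 were called, where 0.501% of all genes passed, 0.345% as higher and 0.156% as lower. At the same time 17 chains had an unadjusted p under 0.05, as did 1008 of 12165 genes, and DESeq2 called 4. The median log2 fold change was 0.89 over the chains and 0.01 over all genes, with 25 chains above 0. Col6a1 gave 116 and 250 CPM in mutant stroma against 62.2 and 59.8 CPM in wildtype stroma, and Col6a2 gave 91.6 and 169 against 51.8 and 39.5 CPM. Col1a2 gave 5610 and 5329 CPM in mutant stroma against 2318 and 831 CPM in wildtype stroma, and Col1a1 gave 1557 and 1384 against 539 and 617 CPM. In these 4 chains the mutant values lay above the wildtype values, with log2 fold changes of 1.55 (adjusted p = 0.0567, SE 0.35), 1.498 (adjusted p = 0.0584, SE 0.34), 1.82 (adjusted p = 0.144, SE 0.51) and 1.35 (adjusted p = 0.169, SE 0.39). The count moved with the settings, from 0 without wildtype 2 to 6 without wildtype 1, and was 3 and 4 without mutant 1 and without mutant 2.

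The 2 kinds of stroma were also set apart. In the cortical subgate 0 of 22 chains passed, where 0.279% of all genes did, 0.236% as higher and 0.0429% as lower. In the fibroblast-like subgate 0 of 26 passed, where 0.188% did, 0.0773% as higher and 0.110% as lower. At an unadjusted p under 0.05 there were 12 and 6 chains, among 650 of 9326 and 443 of 9061 genes, and DESeq2 called 1 and 0. In cortical cells Col6a1 had 65.3 and 139 CPM in mutant libraries against 34.98 and 31.99 CPM in wildtype libraries, a log2 fold change of 1.64 (adjusted p = 0.116, SE 0.40). In fibroblast-like cells it had 143 and 323 CPM against 155 and 154 CPM, so that mutant 1 lay below the wildtype libraries. With the TMM scaling of the test these were 164 and 307 against 153 and 158, so that the genotypes did not overlap. The log2 fold change was 0.61 (SE 0.37) with an unadjusted p of 0.115 in edgeR. For Col1a1 the fibroblast-like cells gave 2078 and 1820 against 1472 and 1539 CPM, and for Col1a2 7472 and 7075 against 6477 and 1967 CPM. Over all chains the median log2 fold change was 0.90 in cortical and 0.22 in fibroblast-like cells. The difference between the subgates in the effect of genotype was not tested. Beside these values, fibroblast-like cells were 204 of 359 and 1142 of 1855 stroma-gated cells in mutant libraries and 180 of 626 and 265 of 1277 in wildtype libraries.

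**Figure D3:**
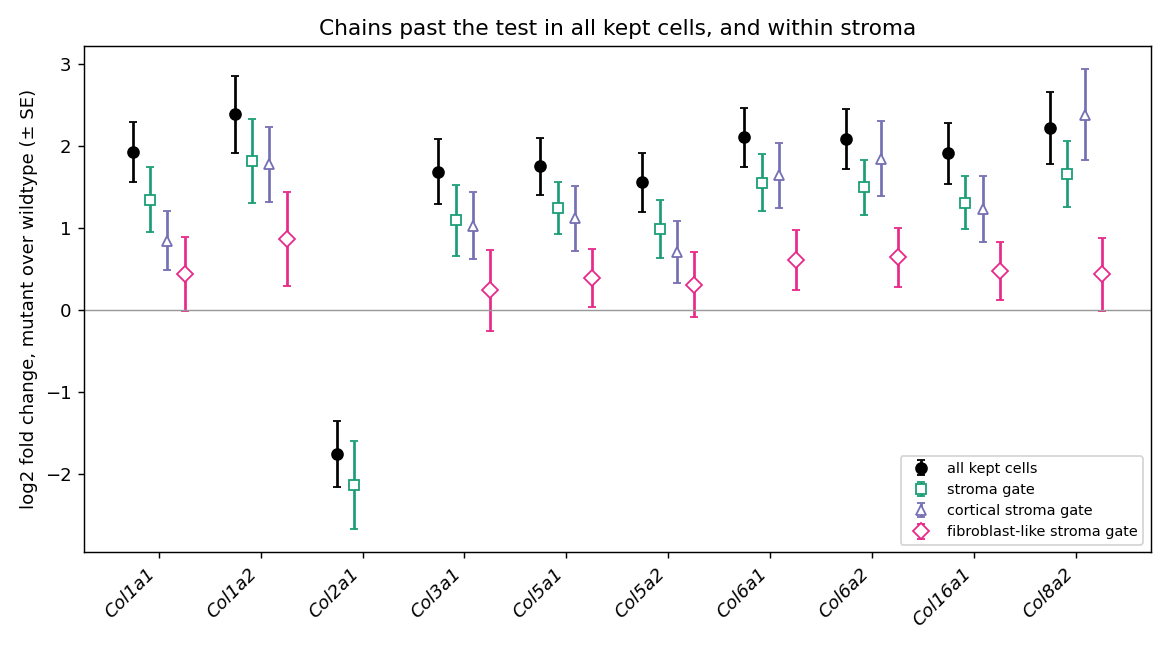
Log2 fold change, mutant over wildtype, with its standard error, for the 10 chains past the test in all kept cells, in all kept cells and in the stroma gate and its subgates; filled symbols passed edgeR's test at an adjusted p under 0.05 and Col2a1 had too few counts in the subgates. Col6a1 stands at 2.11 in all kept cells, 1.55 in the stroma gate, 1.64 in the cortical and 0.61 in the fibroblast-like subgate.

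Col2a1, the fibril chain best known from cartilage, went the other way. Over all kept cells it had 3.29 and 6.81 CPM in mutant libraries and 13.9 and 18.7 CPM in wildtype libraries, a fall by 1.76 on the log2 scale (adjusted p = 0.0185, SE 0.41) with no overlap between genotypes. The call was lost without mutant 1 (adjusted p = 0.0880), without wildtype 2 (0.203) and with no mitochondrial limit (0.126). Among gates with at least 25 cells over the libraries together, its pooled level was highest in nephron progenitors, at 36.6 CPM. This came from 0 and 3 mutant and 12 and 88 wildtype counts, so it is mainly a wildtype level. Col11a2, the partner of Col2a1 in cartilage fibrils, had 10.3 CPM there. The nephron progenitor gate held 0 and 9 mutant cells against 74 and 381 wildtype cells, and the part of this difference in cell numbers in the all-cell result was not tested. In stroma Col2a1 gave 2.16 and 2.39 CPM in mutant libraries, from 3 and 17 counts, and 8.37 and 11.2 CPM in wildtype libraries, with a log2 fold change of -2.14 (adjusted p = 0.0951, SE 0.54). The cartilage markers summed to 25.03 and 30.5 CPM in mutant and 17.5 and 12.2 CPM in wildtype libraries over all kept cells, and no cell met the cartilage gate. Of its 9 markers 3 and 0 were at 0 in mutant and 1 and 1 in wildtype libraries, and their sum was higher in mutants while Col2a1 was lower.

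Type IV collagen was read mainly by Col4a1 and Col4a2, whose chains form the common trimer of basement membranes. Col4a1 had 125 and 242 CPM in mutant libraries and 210 and 127 CPM in wildtype libraries, and Col4a2 had 69.2 and 219 against 126 and 84.2 CPM. The genotypes overlapped in both. Mutant 2 was the highest library in both and mutant 1 the lowest, so that the 2 mutant libraries bracketed the wildtype ones. Col4a5, which joins the later trimer of the glomerular membrane, had 20.7 and 48.7 against 19.5 and 15.1 CPM and did not pass. Col4a3, Col4a4 and Col4a6 stayed below 10 CPM in every library. The genes Col4a1 and Col4a2 lie head to head on chromosome 8 with overlapping starts, and their RefSeq windows, chr8:11312777-11313076 (minus strand) and chr8:11312555-11312854 (plus strand) in GRCm38.p6, share 78 bases. They are shown, each on its own strand, as the shared control region of the pair, with matches to CCAAT and GGGCGG on either strand in capitals:
Col4a1: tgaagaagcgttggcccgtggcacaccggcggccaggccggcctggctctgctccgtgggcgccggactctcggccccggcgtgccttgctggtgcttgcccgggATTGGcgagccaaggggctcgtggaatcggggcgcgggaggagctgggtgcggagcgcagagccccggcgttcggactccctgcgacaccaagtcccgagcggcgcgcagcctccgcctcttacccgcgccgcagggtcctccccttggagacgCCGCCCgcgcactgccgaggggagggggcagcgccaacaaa
Col4a2: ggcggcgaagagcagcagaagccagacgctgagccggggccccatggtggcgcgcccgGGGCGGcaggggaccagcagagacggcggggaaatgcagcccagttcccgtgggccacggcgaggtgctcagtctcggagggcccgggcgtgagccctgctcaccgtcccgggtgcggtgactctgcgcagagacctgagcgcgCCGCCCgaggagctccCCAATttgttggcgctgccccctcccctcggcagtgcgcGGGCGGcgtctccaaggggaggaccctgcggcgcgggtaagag

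Of the gates with at least 25 cells in every library, endothelium had the highest pooled levels of this pair, 568 CPM for Col4a1 and 446 CPM for Col4a2. The mural gate, with 1 and 11 mutant and 2 and 4 wildtype cells, stood at 699 and 583 CPM. Against the other gated cells, 4 of 30 chains were higher in endothelium and 24 were lower, where 40.6% of all genes passed, 18.1% as higher and 22.5% as lower. These other cells include the stroma gate, with 359 and 1855 mutant and 626 and 1277 wildtype cells, where most chains were higher. The part of stroma in the lower calls was not tested. Col4a1 had 504 and 676 CPM in mutant and 614 and 334 CPM in wildtype endothelium, and Col4a2 had 255 and 582 against 346 and 261 CPM. They were higher than in the other gated cells by 2.09 (adjusted p = 0.00146, SE 0.20) and 2.08 (adjusted p = 5.58e-17, SE 0.10). Col15a1 had 89.8 and 156 CPM in mutant and 85.7 and 77.9 CPM in wildtype endothelium, and stood out most at 4.47 (adjusted p = 1.69e-19, SE 0.19). Col18a1 had 285 and 386 against 170 and 164 CPM, a lineage difference of 1.87 (adjusted p = 0.0249, SE 0.34) that was not past the test without mutant 1 (adjusted p = 0.0953). Among the lower chains Col5a2 fell least, at -1.15 (adjusted p = 0.000620, SE 0.21), against -4.75 (SE 0.44) for Col3a1, and its pooled level was 49.7 CPM in endothelium and 219 CPM in stroma, where Col3a1 had 38.8 and 1927 CPM. Between genotypes 0 of the 9 chains tested in endothelium passed, where 0.110% of all genes did, with 2 chains and 375 of 8212 genes at an unadjusted p under 0.05 and 0 chains in DESeq2.

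The epithelial gates had fewer chains above the other gated cells than below them, and those cells again include the stroma gate. In the ureteric bud and collecting duct gate 2 of 29 chains were higher than in the other gated cells and 19 lower, where 29.2% of all genes passed, 13.4% as higher and 15.9% as lower. The higher ones were Col9a3, a chain of fibril-associated type IX collagen, at 2.85 (adjusted p = 0.000421 in edgeR, SE 0.53), and Col18a1 at 1.63 (adjusted p = 0.00134, SE 0.22). Col18a1 had 326 and 377 CPM in mutant and 133 and 203 CPM in wildtype cells of this gate, and Col9a3 7.25 and 4.78 CPM, from 2 counts each, against 18.0 and 17.3 CPM. Other tubule gates of the wildtype libraries had similar Col18a1 levels, 201 and 158 CPM in loop and distal tubule and 169 and 139 CPM in proximal tubule. In mutant 2 these 2 gates had 185 and 168 CPM. Wildtype early nephrons had less, 59.4 and 59.2 CPM. Early nephrons had 1 of 29 chains higher and 21 lower, where 35.2% of all genes passed, 15.5% as higher and 19.7% as lower, and the higher one was Col13a1 at 0.71 (adjusted p = 0.0173, SE 0.25), a call lost with DESeq2 (0.111), with no filter on low counts (0.0883), at a gate lead of 1.5 times (0.0767) and without wildtype 1 (0.206). The counts of Col4a2 per count of Col4a1 were 0.290 and 0.500 in mutant and 0.338 and 0.386 in wildtype cells of the ureteric gate, against 0.659 and 1.07 in mutant and 0.675 and 0.776 in wildtype stroma. In every library the ureteric ratio was the lower of the 2, with 9 over 31 counts in mutant 1. A low ratio was not limited to this gate. Proximal tubule cells had 0 over 7 counts and 0.503 in mutant and 0.321 and 0.519 in wildtype libraries. Early nephrons had 0.500 and 0.906 in mutant and 0.703 and 0.531 in wildtype libraries.

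Between genotypes 1 chain passed in an epithelial gate. In the ureteric bud and collecting duct gate Col26a1, a secreted collagen first described in testis and ovary, had 32.6 and 45.4 CPM in mutant libraries, from 9 and 19 counts, and 1.72 and 3.46 CPM in wildtype libraries, from 2 and 8 counts. It rose by 3.71 on the log2 scale (adjusted p = 0.0334 in edgeR, SE 0.62), 1 of 11 chains tested, where 0.0926% of all genes passed, 0.0116% as higher and 0.0811% as lower. The call was lost without mutant 2 (adjusted p = 0.158) and without wildtype 1 (0.0581). The stroma markers in this gate, which has 43 and 58 mutant and 145 and 257 wildtype cells, summed to 72.5 and 64.5 CPM in mutant and 45.5 and 89.6 CPM in wildtype libraries, with 9, 9, 2 and 0 of 16 at 0, and did not separate the genotypes. In 4 other lists the mutant sums lay above the wildtype sums: 97.9 and 74.1 against 22.3 and 38.1 CPM for the 11 proximal tubule markers, 65.3 and 47.8 against 34.4 and 28.6 CPM for the 7 mural markers, 25.4 and 33.4 against 7.73 and 7.79 CPM for the 5 mesothelial markers, and 21.8 and 23.9 against 14.6 and 9.96 CPM for the 12 neural and glial markers. Of these markers 3 and 6 against 3 and 3 were at 0 for proximal tubule, 4 and 3 against 4 and 3 for mural, 2 and 2 against 2 and 1 for mesothelium, and 9 and 6 against 7 and 8 for neural and glial cells. Their part in the Col26a1 result was not tested. In the early nephron gate 0 of 12 chains passed, where 0.0% of all genes did, with 1 chain and 337 of 8906 genes at an unadjusted p under 0.05 and 0 chains in DESeq2. Over all kept cells Col26a1 gave 38.9 and 61.8 against 39.2 and 36.6 CPM, with mutant 1 inside the wildtype range.

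Podocytes, the filtering cells of the glomerulus, carried many counts of Col1a2 and few of Col1a1. The podocyte gate held 9 and 187 mutant cells and 26 and 19 wildtype cells, below the minimum of 25 in 2 libraries, so its comparison with the other epithelial gates was added after the data were seen. Col1a2 gave 46 and 1542 counts in mutant podocytes and 142 and 41 in wildtype podocytes, where Col1a1 gave 3 and 41 against 3 and 2. Col1a2 was thus 93.9% (95% exact binomial interval 83.1 to 98.7) and 97.4% (96.5 to 98.1) of the type I counts of mutant podocytes, and 97.9% (94.1 to 99.6) and 95.3% (84.2 to 99.4) of those of wildtype podocytes. In stroma the same share was 78.3% and 79.4% in mutant and 81.1% and 57.4% in wildtype libraries. In each library the podocyte interval lay above the stroma value. These intervals cover counting error only.

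Per cell the contrast was as plain. A count of Col1a2 was found in 66.7% and 91.4% of mutant podocytes and in 84.6% and 68.4% of wildtype podocytes, and a count of Col1a1 in 22.2% and 14.4% against 11.5% and 10.5%. In immune-gated cells, at a similar median depth of 2514 and 2163 counts in mutant and 2342 and 1937 counts in wildtype libraries, against 2684 and 2748 and 2357.5 and 2998 in podocytes, Col1a2 was found in 30.4% and 22.7% of mutant and 2.94% and 9.72% of wildtype cells, and Col1a1 in 0% and 10.6% against 5.88% and 5.56%. With every cell thinned to 1000 counts, leaving out 0 and 13 mutant and 3 and 2 wildtype podocytes, Col1a2 was found in 66.7% and 82.8% of mutant and 60.9% and 47.1% of wildtype podocytes, and Col1a1 in 0% and 5.75% against 4.35% and 0%. Thinned immune cells gave 9.09% and 3.77% against 0% and 5.26% for Col1a2, and 0% and 3.77% against 0% and 5.26% for Col1a1. The Col1a2 share in podocytes was above the immune background in every library, and the thinned Col1a1 shares of podocytes and immune cells overlapped, both lying between 0% and 5.75%. Erythroid cells held 10 and 149 counts of Col1a2 in mutant and 0 and 96 in wildtype libraries. Of Col1a1 they held 1 and 28 against 0 and 70. Their pooled Col1a2 level was 419 CPM, against 2412 CPM in podocytes, but the libraries weigh differently in these pools. In mutant 2 Col1a2 gave 149 of 59847 erythroid counts, in 10 cells, and 1542 of 585841 podocyte counts, a similar share. In mutant 1 the erythroid share was the higher, 10 of 1685 counts in 1 cell against 46 of 24691 in podocytes. In wildtype 2 it was the lower, 96 of 546769 against 41 of 56253. Against the other epithelial gates Col1a2 was higher by a log2 fold change of 4.9997 (adjusted p = 2.19e-115 in edgeR, SE 0.21), and Col1a1 by 1.61 (adjusted p = 0.00101, SE 0.42). The p-values of this podocyte fit follow a normal distribution of the fold change over its SE. They rest on a spread estimated across genes and do not weigh each chain's own spread over the libraries.

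**Figure D4:**
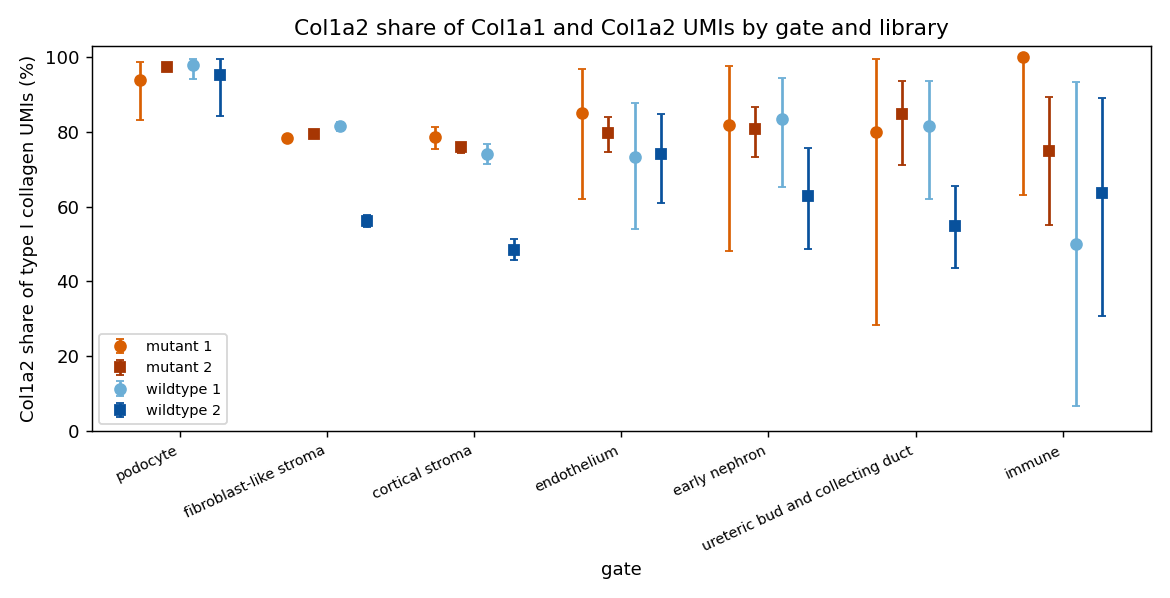
Share of type I collagen counts that came from Col1a2 (%, with 95% exact binomial intervals) in 7 gates, each point 1 library, mutant left of wildtype. The podocyte points lie between 93.9% and 97.9%, and wildtype 2 is the low library in both stromal subgates.

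Of the 11 chains tested in podocytes 6 were higher than in the other epithelial gates and 1 was lower, where 28.2% of all genes passed, 10.5% as higher and 17.8% as lower. Col26a1 was higher by 1.84 (adjusted p = 3.47e-05, SE 0.40), Col4a5 by 1.46 (adjusted p = 0.00199, SE 0.40), Col23a1 by 1.66 (adjusted p = 0.0268, SE 0.61) and Col4a2 by 0.85 (adjusted p = 0.0147, SE 0.29), while Col27a1 was lower at -1.75 (adjusted p = 0.0372, SE 0.68). Col4a3 and Col4a4, the partners of Col4a5 in the mature glomerular membrane, gave 6 and 11 counts in mutant 2 podocytes and 0 counts in the podocytes of the other libraries. Mutant 2 held most of the cells, and without it 3 chains passed, Col4a2 (adjusted p = 0.181), Col4a5 (0.152) and Col27a1 (0.560) being lost. Without wildtype 2 there were 4, Col4a2 (0.0582) and Col27a1 (0.0848) being lost. Col4a2 was also lost with no filter on low counts (0.0546). Col23a1 had too few counts to be tested in either of these fits. The call for Col27a1 was also lost without wildtype 1 (0.0896), with DESeq2 (0.222), at 1000 genes per cell (0.0790), at 2 marker UMIs (0.0716) and with no filter (0.0507). Col23a1 rested on 0 and 19 counts in mutant and 0 and 3 in wildtype podocytes, and its call was lost with DESeq2 (adjusted p = 0.212).

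The low Col1a2 share of wildtype 2 ran through most gates of that library. Counts of Col1a2 made up 48.5% (45.7 to 51.3) of its type I counts in cortical and 56.1% (54.4 to 57.8) in fibroblast-like cells, against 78.6% and 75.8% in mutant and 74.1% in wildtype 1 cortical cells, and 78.2% and 79.5% in mutant and 81.5% in wildtype 1 fibroblast-like cells. The early nephron and ureteric gates of wildtype 2 stood at 63.0% (48.7 to 75.7) and 54.8% (43.5 to 65.7), also the lowest of the 4 libraries. In mutant 1 these gates had only 11 and 5 type I counts, with intervals of 48.2 to 97.7 and 28.4 to 99.5. The early nephron interval of wildtype 2 overlapped those of the other libraries. The endothelium of wildtype 2 at 74.1% and its podocytes at 95.3% were not the lowest. The log2 fold change of Col1a2 between genotypes over all kept cells was 3.30 without wildtype 1 and 1.82 without wildtype 2.

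The effect of genotype was compared between stroma and the other gated cells in 1 model with library as block. Of 36 chains 4 passed, where 1.67% of all genes did, 0.668% as higher and 1.01% as lower. Col4a1 had 63.5 and 111 CPM in mutant stroma against 164 and 120 CPM in wildtype stroma, and in the other gated cells 198 and 371 CPM in mutant against 268 and 135 CPM in wildtype libraries. Col18a1 had 14.4 and 26.6 against 22.3 and 30.7 CPM in stroma, and 200 and 224 against 122 and 108 CPM elsewhere. The differences of log2 fold changes, stroma minus the other gated cells, were -1.18 for Col4a1 (adjusted p = 0.000163), -1.17 for Col4a2 (0.000348), -1.07 for Col18a1 (0.0214) and 1.94 for Col14a1 (0.00264), all by edgeR. Without mutant 2 none of the 36 passed. The call for Col18a1 was also lost without mutant 1 (adjusted p = 0.0841), without wildtype 2 (0.498), at a gate lead of 1.5 times (0.165) and with DESeq2 (0.188), and that for Col14a1 with DESeq2 (0.0892). The makeup of the other gated cells differed beside this: endothelium was 24.3% and 32.3% of them in mutant and 20.7% and 16.3% in wildtype libraries, and nephron progenitors 0% and 0.720% against 12.3% and 26.6%. The part of this makeup in the result was not tested.

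**Figure D5:**
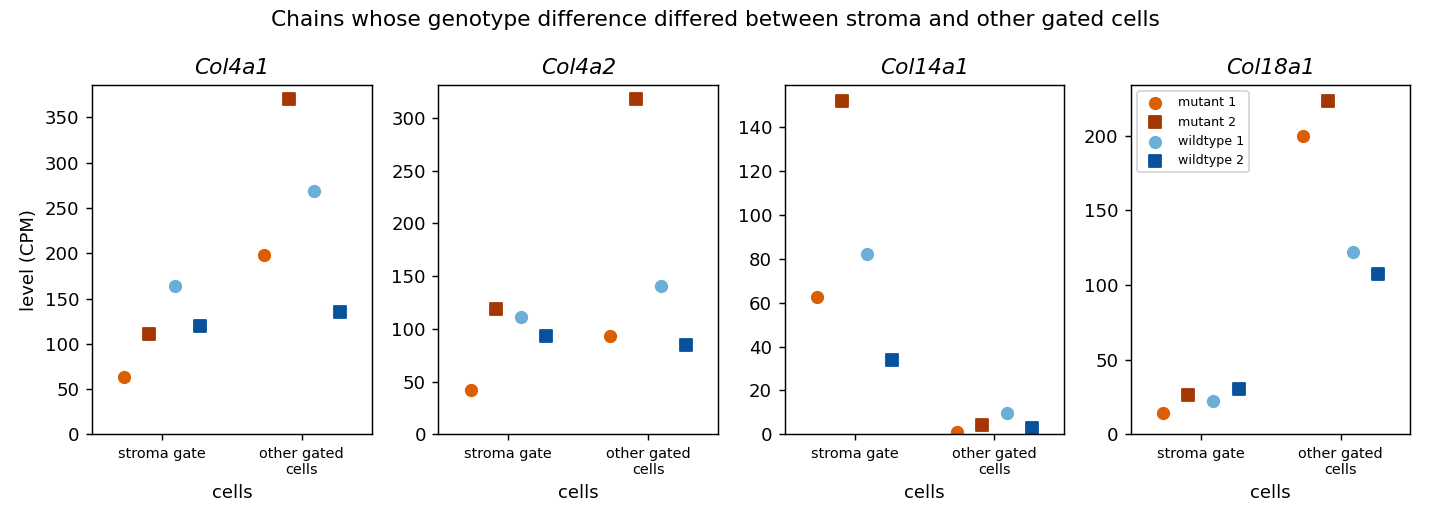
Levels (CPM) of the 4 chains whose genotype difference differed between the stroma gate and the other gated cells, each point 1 library, mutant left of wildtype. Both mutant points of Col18a1 lie above both wildtype points in the other gated cells and not in stroma, and mutant 2 is the highest point of Col4a1 and Col4a2 outside stroma.

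The machinery that folds, trims and crosslinks collagen followed the same lineage. Of 36 listed processing genes 33 were tested between stroma and the other gated cells, and 29 were higher and 2 lower, with a median log2 fold change of 1.45, where 38.0% of all genes passed, 18.2% as higher and 19.8% as lower. Leprel2, a collagen prolyl hydroxylase of the endoplasmic reticulum, was higher by 2.59 (SE 0.10), Pcolce, an enhancer of procollagen C-propeptide cleavage, by 3.36 (SE 0.16), the hydroxylase partner Crtap by 1.63 (SE 0.10) and the folding helper Fkbp10 by 1.85 (SE 0.12). Between genotypes 2 of 34 rose over all kept cells, where 1.32% of all genes passed: Adamts2, which cuts procollagen N-propeptides, with 16.5 and 22.4 CPM in mutant and 5.07 and 2.998 CPM in wildtype libraries, at 2.19 (adjusted p = 0.00155, SE 0.39), and the transcription factor Creb3l1, with 25.4 and 29.9 against 10.3 and 8.69 CPM, at 1.42 (adjusted p = 0.0465, SE 0.37). Their median of 0.65 stood beside 0.01 for all genes. In stroma 0 of 33 passed, with 6, and 1008 of 12165 genes, at an unadjusted p under 0.05 and Adamts2 at 1.69 (adjusted p = 0.0738). In fibroblast-like cells Cthrc1, a collagen triple helix repeat protein, fell by 2.08 (adjusted p = 0.0431, SE 0.41), the 1 call among 28, where 0.188% of all genes passed.

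Receptors for collagen divided by lineage. Of 6 tested between stroma and the other gated cells 3 were higher and 2 lower, where 38.0% of all genes passed. Ddr2, the fibrillar collagen kinase of mesenchyme, was higher in stroma by 4.05 (SE 0.23) and Mrc2, an uptake receptor, by 2.87 (SE 0.29), while Itga2 was lower at -4.77 (SE 0.70) and the epithelial kinase Ddr1 at -0.56 (SE 0.14). In endothelium Itga2 was higher by 4.75 (SE 0.34) and Ddr1 lower at -5.77 (SE 0.49). Of the 18 basement membrane partners, 16 were tested between stroma and the rest, and 6 were higher and 9 lower against the same background of 38.0%. Lama2 led those higher at 3.63 (SE 0.32), and Npnt, an integrin ligand of the early kidney, those lower at -3.48 (SE 0.15). Between genotypes over all kept cells 0 of 9 receptors and 0 of 18 partners passed edgeR's test, with 2 and 4, and 1500 of 15777 genes, at an unadjusted p under 0.05, the nearest being Mrc2 (1.04, adjusted p = 0.251) and Lama2 (1.39, adjusted p = 0.119).

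Of the 44 chains, 24 reached 10 CPM on average in a genotype and are named above, Col4a1, Col4a2 and Col18a1 among them; Col18a1 had 87.6 and 121 CPM in mutant and 76.2 and 75.5 CPM in wildtype libraries. Another 17 were tested over all kept cells at lower levels, and none of them passed. Col10a1, Col19a1 and Col6a5 had 7, 18 and 28 counts in all kept cells of the 4 libraries together and were too low to be tested.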

How the data were processed

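Per library the authors deposited 1 matrix of raw counts, genes by cell barcodes, in whole numbers and without normalization. Bowtie2 2.2.7 and mm10 are named in the submitters' processing notes. The annotation and the handling of strand and molecular identifiers are not given in the sources used here, so antisense or overlapping genes may share counts. All 15144 barcodes had at least 500 genes.

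Barcodes with a mitochondrial share over 10% were left out, and then the 5% per library with the highest Scrublet score, 620 in all (scanpy 1.11.5, which by its own threshold called 10), which left 11779 cells, 7584 of them gated. Cells with at least 20% haemoglobin counts formed an erythroid gate. Subgates of stroma needed at least 2 UMIs of their markers and more than of the other subgate. Gates with at least 25 cells in every library were tested on counts summed per library with edgeR 4.0.16 (R 4.3.3; robust quasi-likelihood test after filterByExpr and TMM), Benjamini-Hochberg adjusted over all genes at 0.05, with library as block between gates of the same libraries. SEs were derived from the fold change and its F statistic; log2 fold changes are mutant over wildtype, or gate over other cells. CPM are without TMM. Overlap of the genotypes, or its lack, describes 2 against 2 libraries. Its share over all genes was not counted, so it is not a test of a difference.

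DESeq2 1.42.0, other filters, other gate settings, replicate blocks and leaving out each library were the alternatives; a genotype left with 1 library is assumed to vary like the other. The tests were also run on simulated counts in which every gene had the same spread. This checks the procedure and does not gauge its error rate at the spread of these libraries. Chains and lists were chosen with earlier results of these data known. Named were chains past the test in all cells or stroma or with a mean of at least 10 CPM in a genotype, up to 6 per lineage by fold among those with 10 CPM there, and up to 4 other genes per list by smallest p, or the 2 nearest where none passed. Col5a2 in endothelium, Col2a1 and Col11a2 in nephron progenitors, Col4a3 and Col4a4 in podocytes, Col6a6, and the ratios of Col1a2 to Col1a1 and of Col4a2 to Col4a1 were singled out after their values were seen.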

Additional observations from a re-analysis of the deposited data

Results flagged for a closer look

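The effect of genotype differed between stroma-gated and other gated cells for 4 chains, by edgeR's test of the difference itself, with log2 fold changes in stroma minus those elsewhere of -1.18 for Col4a1, -1.17 for Col4a2, -1.07 for Col18a1 and 1.94 for Col14a1. Col4a2 had 41.8 and 119 CPM in mutant stroma against 111 and 93.3 CPM in wildtype stroma, and 92.9 and 317 CPM in the other mutant cells against 141 and 84.6 CPM in the other wildtype cells. Col14a1 had 62.8 and 152 CPM in mutant stroma against 82.2 and 33.8 CPM in wildtype stroma, and 1.16 and 4.46 CPM in the other mutant cells against 9.72 and 3.001 CPM in the other wildtype cells, where counts were few. Without mutant 2 none of the 4 passed (adjusted p = 0.208, 0.346, 0.181 and 0.459 in the order given first).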

How the results depend on the processing

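Over all kept cells the count of chains past the test lay between 7 and 11 under the other settings and between 6 and 14 when a library was left out, and that of all genes (208) between 269 and 395 when a library was left out. In stroma, where 0 chains and 61 genes passed, chains numbered 3 at a lead of 1.5 times, 4 with DESeq2, 5 with no filter on low counts and 4 with the replicate block, and 0 to 6 when a library was left out. All genes there numbered 40 with no mitochondrial limit, 94 at the lower lead, 92 with DESeq2, 200 with no filter, 162 with the replicate block, 16 with the crossed block and 132 to 210 when a library was left out. In cortical stroma 1 chain passed with DESeq2, 4 with no filter and 0 to 3 when a library was left out. In fibroblast-like stroma 1 passed with no filter, 1 with the replicate block and 0 to 1 when a library was left out, and in the ureteric gate 0 to 1. Podocyte calls ran from 3 to 8 and those of the stroma difference from 0 to 5 when a library was left out, the last being 2 with DESeq2. The cause of these shifts was not tested. For the subgates, the ureteric and podocyte gates and the stroma difference, no counts over all genes stand beside these. The chain counts there can therefore not be weighed against that background.

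The replicate numbers did not pair the libraries: same-numbered libraries' deviations correlated at -0.0021 over all cells, -0.08 in stroma, -0.14 in the ureteric gate and -0.15 in fibroblast-like stroma. With the replicate block 8 chains passed over all kept cells, all of them among the 10, while Col3a1 (adjusted p = 0.111) and Col5a2 (0.103) did not, and with the crossed block, added after the data were seen, 7 passed there, 0 in stroma and 1 in the ureteric gate.

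Changes of sign met chains that had not passed. Over all kept cells the log2 fold change of Col4a1 (0.0082) was -0.011 with no doublet step, -0.0096 with DESeq2, -0.035 with no filter, -0.030 with the replicate block and -0.034 with the crossed block, and lay between -0.47 and 0.37 when a library was left out. The ranges when a library was left out were -0.65 to 0.89 for Col4a2, -0.031 to 0.52 for Col26a1 and -0.0022 to 0.69 for Col11a1. In stroma Col11a1 was 0.025 at a lead of 1.5 times and 0.013 with the replicate block. When a library was left out there, Col11a1 ran from -0.48 to 0.45, Col4a2 from -1.15 to 0.11, Col6a3 from -0.073 to 1.52, Col15a1 from -0.37 to 0.90 and Col26a1 from -0.36 to 0.46. The cause was not tested. The early nephron comparisons were not run at 1000 genes or at 5 marker UMIs. Small cell numbers limited the podocyte gate, with 9 and 187 mutant and 26 and 19 wildtype cells.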
